A study of Homo sapiens with 9 samples.

Results

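The genes described here are 40 genes of the autophagy machinery and its cargo receptors, taken by symbol from a fixed list, out of 15570 genes in the deposited expression table. They comprise 5 genes of the ULK1 initiation complex, 6 of the class III PI3 kinase complexes, 7 that supply membrane or bind PI3P, 6 of the conjugation systems, 4 ATG4 proteases, 4 ATG8 proteins and 8 cargo receptors or mitophagy genes. RNA-seq was done on hCMEC/D3, an immortalised line of human brain microvascular endothelial cells that is used as a model of the blood-brain barrier, with 3 libraries in each of 3 groups. Control cells were untreated. OGD cells (oxygen-glucose deprivation) spent 4 h without glucose under 95% N2 and 5% CO2. OGD/R cells went through the same deprivation and then 16 h of reoxygenation in normal medium under 21% O2 and 5% CO2. All groups are one cell line, with no genetic change between them, and the labels give no separate time control for the additional 16 h.

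Macroautophagy encloses cytoplasm in a double membrane, the autophagosome, and delivers it to the lysosome. The ULK1 kinase complex starts the process when nutrients or energy are short. A class III PI3 kinase then marks the membrane with PI3P, ATG9 vesicles and ATG2 supply lipid, and conjugation enzymes attach ATG8 proteins (LC3 and GABARAP) to it. Receptors such as p62 (SQSTM1) bind both cargo and ATG8. In endothelial cells the pathway is studied as a response to ischaemia and loss of nutrients. Transcript levels give the supply of mRNA for these proteins and are not a measure of autophagic flux, which depends largely on phosphorylation, lipidation and turnover.

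Values are FPKM, read fragments scaled to transcript length and library size, so levels can be compared between genes, while the number of reads behind a value is unknown. The listed values of a library summed to between 442696 and 605818 FPKM. Differences are in log2(FPKM + 1), where the added 1 shrinks the change of low genes. A gene rose or fell where limma gave a Benjamini-Hochberg adjusted p under 0.05 over the 10818 genes that reached 1 FPKM in 3 or more libraries. All 40 autophagy genes passed that filter, and none was listed at 0 in any library. Nothing in the labels says that the 3 libraries of a group came from separate cultures, so the p-values measure the spread between these libraries, which may be technical. The labels name no batch, so no within-batch value can be given. Of 12 endothelial markers, PECAM1, CDH5, ENG and ROBO4 passed the filter. VWF, which marks endothelial cells, was at most 0.0881 FPKM, and CLDN5, a tight junction protein of the blood-brain barrier, at most 0.101 FPKM. The summed endothelial markers ranged from 15.5 to 21.1 FPKM in control, 8.55 to 9.44 FPKM in OGD and 36.3 to 46.6 FPKM in OGD/R. Most of this sum was ENG, at 11.1 to 17.0, 6.1 to 7.1 and 30.3 to 38.0 FPKM in the same order. PECAM1, CDH5 and ROBO4 reached at most 1.55, 2.62 and 2.56 FPKM in any library. Summed fibroblast markers (3 of 6 passed, led by COL1A1 and COL1A2) ranged from 20.5 to 28.6, 9.23 to 10.8 and 52.2 to 69.7 FPKM in the same order. The pericyte and smooth muscle list (4 of 8) ranged from 10.2 to 13.7, 6.14 to 7.74 and 17.1 to 19.5 FPKM. KRT8 and KRT18, from an epithelial list of 6, carried a sum of 166 to 201, 130 to 139 and 238 to 257 FPKM. CD68 passed alone of 6 leukocyte markers (list sum 17.2 to 20.7, 20.7 to 21.8 and 25.7 to 27.3 FPKM), and none of 6 astrocyte and neuron markers passed (at most 0.534 FPKM summed). No marker list had all of its genes at 0. The part of these lists in the results below was not tested.

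The whole table shifted between the groups, which bears on every count below. The median gene tested differed by -0.31 between OGD and control, by 0.39 between OGD/R and OGD, and by 0.07 between OGD/R and control. OGD against control had 1218 genes higher and 5054 lower on the deposited values. After median-of-ratios scaling the split was 2863 higher and 2495 lower, after quantile normalization 2166 and 2427, and after removal of a trend with transcript length 2344 and 2295. From OGD to OGD/R, 5770 higher and 1878 lower became 3525 and 3704, 3399 and 3386, and 3189 and 3190 in the same order. A relative difference below is the difference minus the median of all genes. The 4 scales are the deposited values and these 3 alternatives.

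In control cells the autophagy transcripts spanned a wide range of levels, and those of the ATG8 proteins GABARAP and GABARAPL2 were the most abundant. GABARAP had the highest mean, 351 ± 23.3 FPKM (SD, n = 3), followed by GABARAPL2 with 175 ± 7.04 FPKM, VMP1 with 125 ± 11.5 FPKM and SQSTM1 with 93.2 ± 3.75 FPKM. The ranges of the first 3 did not overlap one another over the control libraries. The lowest were AMBRA1 with 1.77 ± 0.797 FPKM, ATG2B with 1.62 ± 0.182 FPKM and WDFY3 with 1.61 ± 0.263 FPKM, and these 3 overlapped. The summed level of the 40 genes ranged from 1422.2 to 1456.5 FPKM in control, 1388.9 to 1406.4 FPKM in OGD and 1199.2 to 1286.6 FPKM in OGD/R. The OGD/R libraries were all below the others in this sum, of which GABARAP was the largest component. The library totals also differed between the groups. As a share of the library total, the 40 genes made up 0.271% to 0.313% in control and 0.232% to 0.237% in OGD. In OGD/R the share was 0.267% to 0.290%, so by this measure the OGD libraries were lowest.

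After 4 h of deprivation 28 of the 40 genes passed, 24 lower and 4 higher, where 58.0% of all genes tested passed, 46.7% lower and 11.3% higher. The genes that rose were WIPI1, MAP1LC3B, GABARAP and SQSTM1. The median over the 40 genes was -0.42, or -0.11 relative to all genes. On that scale the change was at least 2-fold in 1 higher and 2 lower genes, where 1.56% and 4.63% of all genes changed so. Between OGD and OGD/R 30 genes passed, 22 upward and 8 downward, where 70.7% of all genes passed, 53.3% upward and 17.4% downward, and the median was 0.48, or 0.09 relative. At least 2-fold changes were 3 upward and 0 downward, beside 17.0% and 3.52%. OGD/R differed from control in 15 genes, 6 higher and 9 lower, beside 41.2%, 24.7% and 16.5% of all genes, with a median of 0.10, or 0.03 relative. None of the 40 differed at least 2-fold on the log2(FPKM + 1) scale there, beside 3.04% higher and 0.444% lower of all genes. The libraries of OGD and control did not overlap in 5 higher and 26 lower genes (13.2% and 51.8% of all genes), those of OGD/R and OGD in 24 and 10 (57.8% and 20.4%), and those of OGD/R and control in 9 and 9 (28.5% and 19.3%). Without OGD/R replicate 2 the higher count of that comparison was 2, without control replicate 3 or OGD/R replicate 3 it was 3, and without OGD/R replicate 3 the genes called in either direction went from 15 to 9. The difference between the shares of the autophagy genes and those of all genes was not tested, and nothing particular to the list is read from these counts. In bulk RNA, fewer cells that express a gene and less RNA per cell cannot be told apart.

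**Figure D1:**
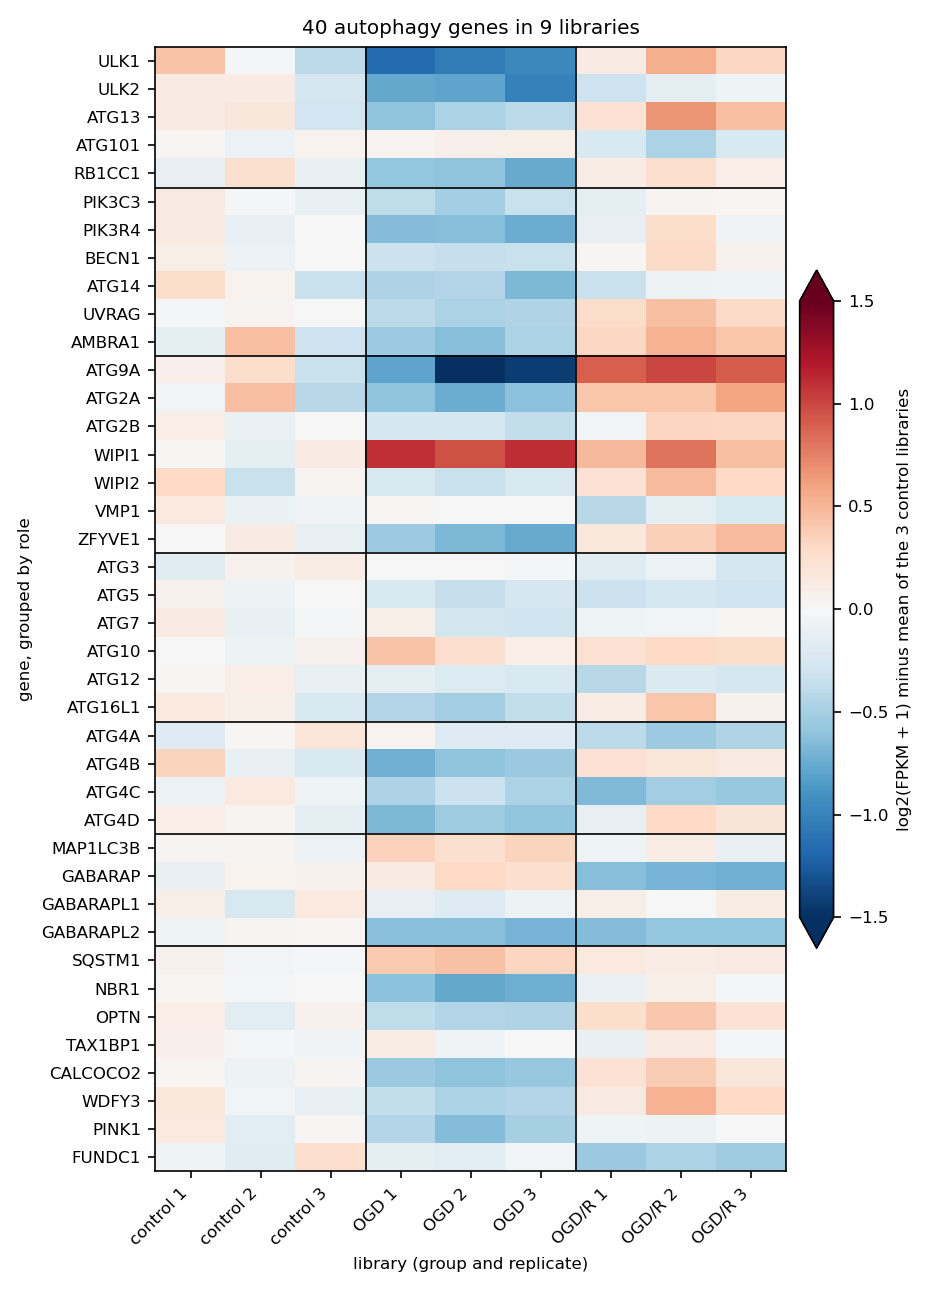
Each row is 1 of the 40 autophagy genes, ordered by role, and each column 1 of the 9 libraries; colour gives log2(FPKM + 1) minus the mean of the 3 control libraries. The OGD columns are mostly below control, apart from rows such as WIPI1, MAP1LC3B, GABARAP and SQSTM1, and in the OGD/R columns 9 genes are below control by the test, among them GABARAP, GABARAPL2, FUNDC1, ATG4C and ATG4A.

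The ULK1 complex, which receives signals from AMPK and mTORC1, fell in 4 of 5 genes under deprivation, beside 46.7% of all genes. It rose in 4 at reoxygenation, beside 53.3%. After median-of-ratios scaling 3 of the 5 fell and 1 rose under deprivation, and 2 fell and 0 rose after quantile normalization and with the length trend removed. At reoxygenation 4, 2 and 2 rose and 1, 1 and 0 fell on those scales. ULK1, its kinase (chromosome 12, 131894622 to 131923150, GRCh38.p14), had 5.28, 3.56 and 2.57 FPKM in the control libraries, 1.10, 1.26 and 1.39 FPKM in OGD, and 4.10, 5.84 and 4.78 FPKM in OGD/R. Every OGD library was below every library of the other groups, while control and OGD/R overlapped. The mean fell from 3.80 ± 1.37 to 1.25 ± 0.144 FPKM (log2 difference -1.06, SE 0.19, limma adjusted p = 0.000714). It then rose to 4.90 ± 0.878 FPKM (1.38, SE 0.19, adjusted p = 4.2e-05), and OGD/R against control gave 0.33 with adjusted p = 0.189. ULK2, the related kinase, went from 3.37 ± 0.620 to 1.40 ± 0.213 and 2.86 ± 0.332 FPKM. The falls of ULK1 and ULK2 in OGD held on all 4 scales and in the 18 alternatives in which these genes were tested. The rise of ULK1 also held in those, whereas that of ULK2 did not pass after quantile normalization (0.16, adjusted p = 0.223) or with the length trend removed (0.00, adjusted p = 0.989).

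ATG13 and RB1CC1 (FIP200), which hold the complex together, also fell and rose on the deposited values. ATG13 went from 10.9 ± 1.97 to 7.41 ± 0.580 and 15.2 ± 2.49 FPKM, and its OGD/R libraries (12.8, 17.7 and 15.1 FPKM) were all above control (0.44, adjusted p = 0.0308). RB1CC1 went from 7.97 ± 1.32 to 4.70 ± 0.371 and 8.91 ± 0.576 FPKM. The fall of ATG13 did not pass on any other scale (-0.16, -0.11 and -0.06), whereas its rise held on all 4. Its excess over control in OGD/R held in 13 of 19 alternatives. For RB1CC1, neither fall nor rise passed after quantile normalization (-0.25 and 0.25) or with the length trend removed (-0.20 and 0.10). ATG101, the partner that stabilises ATG13, took another course. It was at 56.1, 51.4 and 57.1 FPKM in control and 56.4, 58.1 and 58.5 FPKM in OGD, which overlap (0.07, adjusted p = 0.523). Under median-of-ratios scaling it passed as higher in OGD (0.44, adjusted p = 0.011). In OGD/R it fell to 46.7, 39.2 and 46.8 FPKM, below every other library (-0.38 against OGD, adjusted p = 0.00253). That fall did not pass with the length trend removed (-0.16, adjusted p = 0.0918).

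All 6 genes of the PI3 kinase complexes fell in OGD on the deposited values, beside 46.7% of all genes. Under median-of-ratios scaling 1 of 6 did, and none did under quantile normalization or with the length trend removed. At reoxygenation 5 rose on the deposited values, beside 53.3% of all genes, and 3, 2 and 1 rose on those scales. BECN1 (Beclin 1, chromosome 17, 42810132 to 42824282), the scaffold subunit, had 42.9, 37.8 and 39.96 FPKM in control, 31.8, 31.4 and 31.7 FPKM in OGD, and 41.1, 49.4 and 42.1 FPKM in OGD/R. The OGD libraries lay within 1 FPKM of each other and below all the rest. The fall was -0.33 (SE 0.09, limma adjusted p = 0.00896), which is -0.02 relative to the median of all genes, and under median-of-ratios scaling the difference was 0.03. The rise from OGD to OGD/R was 0.46 (adjusted p = 0.000727), or 0.07 relative. The fall did not pass on the other scales (adjusted p = 0.757, 0.0931 and 0.0889). The rise was 0.00 under median-of-ratios scaling and passed after quantile normalization (0.33, adjusted p = 0.00249) and with the length trend removed (0.32, adjusted p = 0.00177).

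PIK3C3 (VPS34, the lipid kinase) went from 8.37 ± 0.837 to 6.04 ± 0.449 and 8.23 ± 0.632 FPKM. Its rise in OGD/R of 0.39 became -0.28 (adjusted p = 0.015) after the length trend was removed. PIK3R4, the pseudokinase subunit that anchors it, went from 6.02 ± 0.635 to 3.38 ± 0.168 and 6.23 ± 1.11 FPKM. ATG14 directs the complex to sites of autophagosome formation; it fell from 6.50 ± 1.56 to 4.14 ± 0.454 FPKM and stood at 5.65 ± 0.687 FPKM in OGD/R (adjusted p = 0.0577 against OGD). UVRAG, which replaces ATG14 in the endosomal complex, had 2.61, 2.79 and 2.68 FPKM in control, 1.82, 1.66 and 1.70 FPKM in OGD and 3.46, 4.04 and 3.51 FPKM in OGD/R. Its 3 groups did not overlap, with OGD/R highest, but the difference of OGD/R from control (0.34, adjusted p = 0.0375) did not pass in 11 of 18 alternatives. AMBRA1, a scaffold that links Beclin 1 to ubiquitin ligases, was near the filter, at 1.77 ± 0.797, 0.841 ± 0.110 and 2.604 ± 0.261 FPKM.

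On the log2(FPKM + 1) scale ATG9A had the largest change of the 40 genes in each comparison. ATG9A, the lipid scramblase carried on ATG9 vesicles (chromosome 2, 219219380 to 219229636), had 6.88, 7.99 and 4.96 FPKM in control, 3.33, 1.59 and 1.79 FPKM in OGD and 13.0, 14.1 and 13.0 FPKM in OGD/R. The 3 groups did not overlap, and OGD/R was highest. It fell in OGD (-1.25, SE 0.20, limma adjusted p = 0.000306), rose 5.98-fold in mean FPKM from OGD to OGD/R (2.19, SE 0.20, adjusted p = 1.6e-06), and ended above control (0.94, adjusted p = 0.00271). All 3 calls held on all 4 scales. ATG2A, the lipid transfer protein that works with ATG9A (chromosome 11, 64894546 to 64917209), had 1.91, 3.10 and 1.25 FPKM in control, 0.966, 0.789 and 0.959 FPKM in OGD and 3.01, 3.001 and 3.51 FPKM in OGD/R. OGD was below the other groups, which overlapped. It fell by 0.65 (SE 0.19, adjusted p = 0.00989), which did not pass on any of the other scales (adjusted p = 0.0596, 0.130 and 0.343). It rose by 1.13 (SE 0.19, adjusted p = 0.000163), which held on all 4, and OGD/R against control missed the threshold (0.48, adjusted p = 0.0577). Its paralog ATG2B stood at 1.62 ± 0.182, 1.13 ± 0.0826 and 2.02 ± 0.408 FPKM, and its rise in OGD/R (0.49, adjusted p = 0.00596) did not pass on any other scale (0.21, 0.02 and -0.13).

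WIPI1, a PI3P-binding protein at the forming autophagosome (chromosome 17, 68421281 to 68457496), went the other way. It had 17.2, 15.2 and 18.5 FPKM in control, 37.4, 33.6 and 37.6 FPKM in OGD and 24.0, 30.4 and 23.4 FPKM in OGD/R. The groups did not overlap; OGD was highest and OGD/R lay between. WIPI1 rose by 1.05 (SE 0.12, limma adjusted p = 2.99e-05), or 1.36 relative to all genes, and was the 1 member of the 40 to rise at least 2-fold in OGD. It fell from OGD to OGD/R (-0.47, SE 0.12, adjusted p = 0.00288) but stayed above control (0.58, adjusted p = 0.00199), and these 3 calls held on all 4 scales. Of the 7 genes of membrane supply, 1 rose and 3 fell in OGD, beside 11.3% and 46.7% of all genes. Under median-of-ratios scaling, quantile normalization and removal of the length trend 2, 1 and 2 rose and 2, 2 and 1 fell. WIPI1 overlaps ARSG and PRKAR1A in the annotation, and whether strand was used in counting is not given in the sources used here. PRKAR1A, the more abundant of these neighbours, fell in OGD (-0.66, adjusted p = 0.00156), from 55.2 to 34.3 FPKM. ARSG rose (0.65, adjusted p = 0.00307), from 1.05 to 2.21 FPKM, so the WIPI1 values are uncertain to that extent. In all, 10 of the 40 genes overlap another listed gene: these are WIPI1, SQSTM1, GABARAP, BECN1, ATG13, ATG14, ATG3, ATG7, ATG4A and ATG4D, whose values carry the same limit.

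WIPI2, the paralog that recruits ATG16L1, had 30.4, 19.3 and 25.3 FPKM in control and 20.6, 19.3 and 20.6 FPKM in OGD, which overlap (-0.27, adjusted p = 0.110). It rose to 31.2 ± 2.96 FPKM in OGD/R (0.60, adjusted p = 0.00203 against OGD), which did not pass under median-of-ratios scaling (0.15) or with the length trend removed (-0.03). ZFYVE1 (DFCP1), a PI3P-binding marker of the omegasome, fell from 3.12 ± 0.343 to 1.60 ± 0.190 FPKM and rose to 4.19 ± 0.579 FPKM (0.99, adjusted p = 3.8e-05). VMP1, an ER membrane scramblase, was at 125 ± 11.5 FPKM in control and 125 ± 1.19 FPKM in OGD, and fell to 104 ± 9.88 FPKM in OGD/R (-0.27, adjusted p = 0.0214). In OGD it passed as higher under median-of-ratios scaling (0.37, adjusted p = 0.00225) and with the length trend removed (0.30, adjusted p = 0.00359). Its difference between OGD/R and control (-0.27, adjusted p = 0.0372) did not pass in 10 of 19 alternatives.

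**Figure D2:**
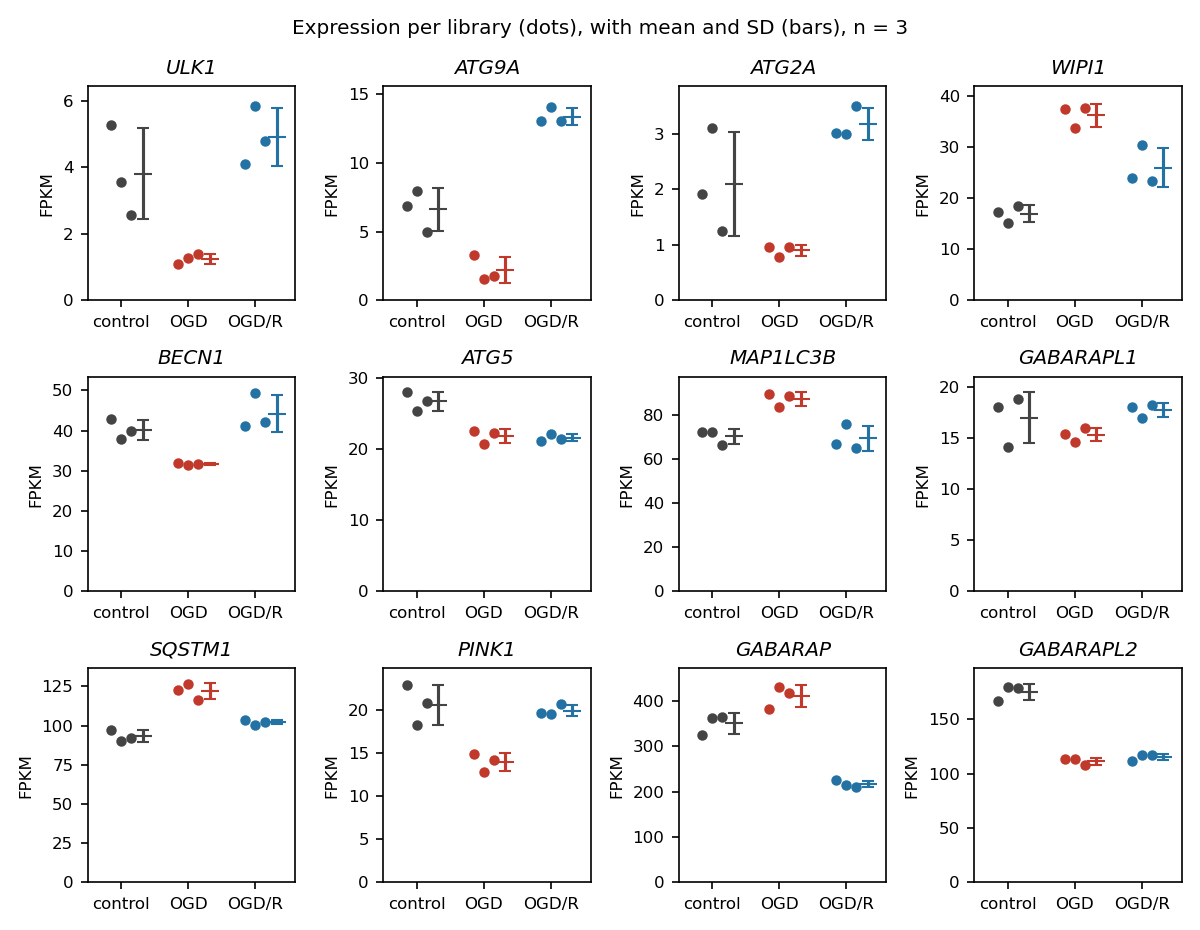
FPKM of 12 of the autophagy genes, 1 panel per gene, by group; dots are libraries, and bars are the mean and SD of 3 libraries. ULK1, ATG9A and ATG2A are lowest in OGD, whereas WIPI1, MAP1LC3B and SQSTM1 are highest there, with WIPI1 at 33.6 to 37.6 FPKM against 15.2 to 18.5 FPKM in control.

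Of the 6 conjugation enzymes ATG5 and ATG16L1 fell in OGD, where 46.7% of all genes fell, and the other 4 did not pass. The direction of this group depended on the scale: none fell in OGD on the other scales, where 2 rose with median-of-ratios scaling, 1 with quantile normalization and 3 with the length trend removed. At reoxygenation 1 rose and 0 fell on the deposited values, beside 53.3% and 17.4% of all genes, while 5, 4 and 5 fell on those scales and 0 rose. ATG5, which forms the E3-like complex with ATG12 and ATG16L1 (chromosome 6, 106184476 to 106325760), had 28.0, 25.4 and 26.8 FPKM in control, 22.6, 20.8 and 22.3 FPKM in OGD and 21.2, 22.2 and 21.5 FPKM in OGD/R. Control was above both treated groups, which overlapped. Its fall in OGD was -0.28 (SE 0.09, limma adjusted p = 0.0159), or 0.03 relative, and it turned to 0.08 under median-of-ratios scaling and after removal of the length trend. OGD/R against OGD gave -0.02 (adjusted p = 0.865) on the deposited values. After median-of-ratios scaling, quantile normalization and removal of the length trend ATG5 passed as lower there (-0.47, -0.34 and -0.50, adjusted p = 0.000286, 0.00288 and 0.000231). OGD/R against control gave -0.30 (adjusted p = 0.0169), a call that held on all 4 scales. ATG12, the ubiquitin-like partner of ATG5, was at 27.3 ± 2.02, 23.7 ± 0.798 and 22.0 ± 1.70 FPKM and was lower in OGD/R than in control (-0.29, adjusted p = 0.0263).

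ATG16L1, which places the complex on the membrane, was the 1 conjugation gene that rose from OGD to OGD/R, from 5.68 ± 0.341 to 9.50 ± 1.46 FPKM. ATG3, the E2-like enzyme for ATG8, ranged from 48.9 to 63.8 FPKM over the 9 libraries and passed in no comparison on the deposited values. After median-of-ratios scaling and removal of the length trend it passed as higher in OGD than in control (0.36 and 0.33). On those scales it was also lower in OGD/R than in OGD (-0.64 and -0.61). ATG7, the shared E1-like enzyme, ranged from 5.86 to 8.28 FPKM and ATG10, the E2-like enzyme for ATG12, from 3.11 to 4.84 FPKM. Neither passed in any comparison on the deposited values. After median-of-ratios scaling, quantile normalization and removal of the length trend both passed as lower in OGD/R than in OGD. The differences in that order were -0.28, -0.41 and -0.52 for ATG7 and -0.38, -0.58 and -0.44 for ATG10. The ATG10 libraries of OGD and OGD/R were all above control (0.26 in each, adjusted p = 0.0926 and 0.111). On the other scales ATG10 passed as higher in OGD than in control (0.56, 0.64 and 0.60).

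The ATG4 proteases, which cut ATG8 precursors and release ATG8 from lipid, took different courses. In OGD 3 of 4 fell on the deposited values, where 46.7% of all genes fell. After median-of-ratios scaling, quantile normalization and removal of the length trend 1, 0 and 1 fell. ATG4B, the most active on LC3, had 19.5, 14.0 and 12.9 FPKM in control, 8.81, 9.64 and 9.995 FPKM in OGD and 17.9, 17.4 and 16.9 FPKM in OGD/R. OGD was below the others (-0.63, adjusted p = 0.00210), and ATG4B rose to the control range in OGD/R (0.81, adjusted p = 0.000188). ATG4D followed the same course, at 9.71 ± 0.909, 6.06 ± 0.356 and 10.7 ± 1.74 FPKM. ATG4A and ATG4C did not rise at reoxygenation. ATG4A stood at 8.78 ± 1.26 and 8.03 ± 0.895 FPKM in control and OGD and fell to 6.06 ± 0.357 FPKM in OGD/R (-0.35 against OGD, adjusted p = 0.0275). ATG4C fell from 6.99 ± 0.749 to 4.98 ± 0.353 FPKM in OGD and was 4.31 ± 0.264 FPKM in OGD/R (-0.59 against control, adjusted p = 0.00244). The lower levels of ATG4A and ATG4C in OGD/R than in control held under all 19 alternatives.

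The ATG8 genes rose, fell or did not pass depending on the member. In OGD 2 of 4 rose and 1 fell, beside 11.3% and 46.7% of all genes. On the other scales 2, 1 and 2 rose and 1 fell. MAP1LC3B (LC3B, chromosome 16, 87392336 to 87404774), the usual marker of autophagosomes, had 72.2, 72.6 and 66.4 FPKM in control, 89.5, 83.6 and 88.8 FPKM in OGD and 67.1, 76.1 and 65.2 FPKM in OGD/R. Each OGD library was above all others, and control and OGD/R overlapped. The rise was 0.31 (SE 0.09, limma adjusted p = 0.00928) and the fall in OGD/R was -0.33 (SE 0.09, adjusted p = 0.00454), with -0.02 between OGD/R and control (adjusted p = 0.869). The near-identical MAP1LC3B2 can share reads with MAP1LC3B, which leaves this value uncertain.

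GABARAP (chromosome 17, 7240008 to 7242449), which acts mainly at later steps of autophagosome formation, had 324, 363 and 366 FPKM in control, 383, 430 and 418 FPKM in OGD and 225, 215 and 211 FPKM in OGD/R. The 3 groups did not overlap, and OGD/R was lowest. The rise in OGD was small (0.23, SE 0.09, adjusted p = 0.0427) and did not pass after quantile normalization (-0.04, adjusted p = 0.738), nor without control replicate 1 (adjusted p = 0.153), OGD replicate 2 (0.160), OGD replicate 3 (0.128), OGD/R replicate 1 (0.0503) or OGD/R replicate 3 (0.0643). The fall from OGD to OGD/R was -0.91 (SE 0.09, adjusted p = 2.7e-06) and left GABARAP below control (-0.69, adjusted p = 0.000128). Both of these held under all 19 alternatives. GABARAPL2 (GATE-16, chromosome 16, 75566379 to 75577881) had 167, 180 and 178 FPKM in control, 113, 113 and 108 FPKM in OGD and 112, 117 and 117 FPKM in OGD/R. It fell in OGD (-0.65, SE 0.08, adjusted p = 4.5e-05) and was still lower than control in OGD/R (-0.60, adjusted p = 0.000121). Between OGD and OGD/R its difference of 0.05 had no settled direction: it was -0.42 under median-of-ratios scaling, 0.22 after quantile normalization and 0.56 with the length trend removed.

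GABARAPL1 (chromosome 12, 10212877 to 10223128), a close relative of GABARAP, had 18.0, 14.1 and 18.8 FPKM in control, 15.4, 14.6 and 15.9 FPKM in OGD and 18.0, 17.0 and 18.2 FPKM in OGD/R. It passed in no comparison (limma adjusted p = 0.336, 0.131 and 0.647), and it has a near copy, the pseudogene GABARAPL3. The summed FPKM of the 4 ATG8 genes over the control libraries was 613 ± 27.8, over OGD 624 ± 20.9 and over OGD/R 419 ± 7.10. GABARAP made up 57.2% ± 1.25 of that sum, then 65.7% ± 1.73, then 51.8% ± 1.44 in the same order. GABARAPL2 made up 28.6% ± 0.197, 17.8% ± 0.873 and 27.5% ± 0.945, and MAP1LC3B 11.5% ± 0.937, 14.0% ± 0.933 and 16.6% ± 1.16.

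Of the receptors and mitophagy genes, 1 of 8 rose and 5 fell in OGD, beside 11.3% and 46.7% of all genes. After median-of-ratios scaling 2 rose and 2 fell, after quantile normalization 1 and 3, and with the length trend removed 2 and 2. SQSTM1 (p62, chromosome 5, 179806393 to 179838078), the receptor for ubiquitinated cargo, had 97.4, 90.1 and 92.0 FPKM in control, 122, 127 and 116 FPKM in OGD and 103, 101 and 102 FPKM in OGD/R. The groups did not overlap, and OGD was highest. SQSTM1 rose by 0.38 (SE 0.08, limma adjusted p = 0.00131), or 0.69 relative, and then fell by 0.25 (SE 0.08, adjusted p = 0.0104). That fall did not pass after quantile normalization (-0.09, adjusted p = 0.271). OGD/R against control gave 0.13 (adjusted p = 0.187). SQSTM1 overlaps MGAT4B, which fell in OGD (-0.67, adjusted p = 0.000461), and MRNIP (-0.27, adjusted p = 0.449).

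NBR1 (chromosome 17, 43170409 to 43211688), a receptor that works together with p62, had 19.6, 18.7 and 19.1 FPKM in control, 12.1, 10.8 and 11.1 FPKM in OGD and 17.7, 20.5 and 18.9 FPKM in OGD/R. All OGD libraries were below the rest. NBR1 fell by 0.70 (SE 0.10, adjusted p = 0.000123) and rose by 0.69 (adjusted p = 4.4e-05). With the length trend removed the rise did not pass (0.06, adjusted p = 0.523), and OGD/R was below control (-0.21, adjusted p = 0.0469). CALCOCO2 (NDP52), a receptor for bacteria and mitochondria, had 22.9, 21.2 and 23.0 FPKM in control, 14.8, 14.4 and 14.7 FPKM in OGD and 26.1, 29.4 and 25.2 FPKM in OGD/R. Its groups did not overlap, but the excess of OGD/R over control (0.25, adjusted p = 0.0440) did not pass in 14 of 19 alternatives. OPTN, also a receptor in mitophagy, went from 42.5 ± 4.05 to 31.3 ± 0.822 and 52.3 ± 3.70 FPKM, and was higher in OGD/R than in control (0.30, adjusted p = 0.0243). That excess did not pass after median-of-ratios scaling (0.20, adjusted p = 0.0771) or removal of the length trend (0.16, adjusted p = 0.166). Nor did the fall of OPTN in OGD on those scales (-0.06 and -0.03, adjusted p = 0.562 and 0.785). TAX1BP1, related to CALCOCO2, ranged from 53.3 to 63.6 FPKM over all libraries and passed in no comparison on the deposited values. After median-of-ratios scaling and removal of the length trend it was higher in OGD than in control (0.39 and 0.44, adjusted p = 0.00107 and 0.000342). On those scales it was lower in OGD/R than in OGD (-0.48 and -0.60, adjusted p = 0.000103 and 1.91e-05). WDFY3 (ALFY), a large scaffold for aggregates, went from 1.61 ± 0.263 to 0.929 ± 0.0704 and 2.26 ± 0.439 FPKM.

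PINK1, the kinase that marks damaged mitochondria (chromosome 1, 20633458 to 20651511), had 22.9, 18.2 and 20.7 FPKM in control, 14.8, 12.8 and 14.2 FPKM in OGD and 19.7, 19.5 and 20.6 FPKM in OGD/R. OGD was below the others (-0.53, SE 0.11, limma adjusted p = 0.00131), and OGD/R returned to the control range (0.49 against OGD, adjusted p = 0.00124; -0.04 against control, adjusted p = 0.776). Neither the fall (-0.18, -0.21 and -0.24) nor the rise (0.04, 0.09 and 0.15) passed on the other scales. FUNDC1, a mitophagy receptor in the outer mitochondrial membrane, had 67.6, 62.0 and 84.4 FPKM in control, 63.9, 62.7 and 68.8 FPKM in OGD, which overlap, and 47.9, 50.6 and 48.6 FPKM in OGD/R. The OGD/R libraries were below all others, by -0.40 against OGD (adjusted p = 0.00492) and -0.52 against control (adjusted p = 0.00238). With the length trend removed, the difference of OGD/R from OGD was -0.02 (adjusted p = 0.802). On that scale FUNDC1 was already lower in OGD than in control (-0.25, adjusted p = 0.0253). The difference of OGD/R from control held under all 19 alternatives.

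Ratios between 2 members within a library do not depend on the library's scaling factor. A trend with transcript length does not cancel in them where the lengths differ. In SQSTM1 over NBR1 (2986 and 4656 nt) and WIPI1 over WIPI2 (1832 and 4476 nt) the shorter transcript is on top. The same holds for ATG101 over ULK1 (1439 and 5310 nt). The longer is on top in GABARAP over GABARAPL2 (1634 and 1002 nt), and in ATG9A over VMP1 and MAP1LC3B over GABARAP. The part of length in the ratios was not tested. The pairs were chosen with the values known, so the ratios are a description with no test. SQSTM1 over NBR1 was 4.96, 4.83 and 4.81 in control, 10.1, 11.7 and 10.4 in OGD and 5.82, 4.92 and 5.41 in OGD/R. GABARAP over GABARAPL2 averaged 2.002 ± 0.0565, 3.69 ± 0.262 and 1.89 ± 0.112 in the same order. WIPI1 over WIPI2 averaged 0.696 ± 0.117, 1.79 ± 0.0450 and 0.831 ± 0.0573. In each of these ratios OGD lay above both other groups without overlap. ATG101 over ULK1 averaged 15.8 ± 5.92, 46.4 ± 4.53 and 9.30 ± 2.38, and ATG9A over VMP1 0.0531 ± 0.0140, 0.0178 ± 0.00743 and 0.129 ± 0.00890. MAP1LC3B over GABARAP was near level between control and OGD (0.202 ± 0.0207 and 0.214 ± 0.0196) and higher in OGD/R (0.320 ± 0.0296).

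**Figure D3:**
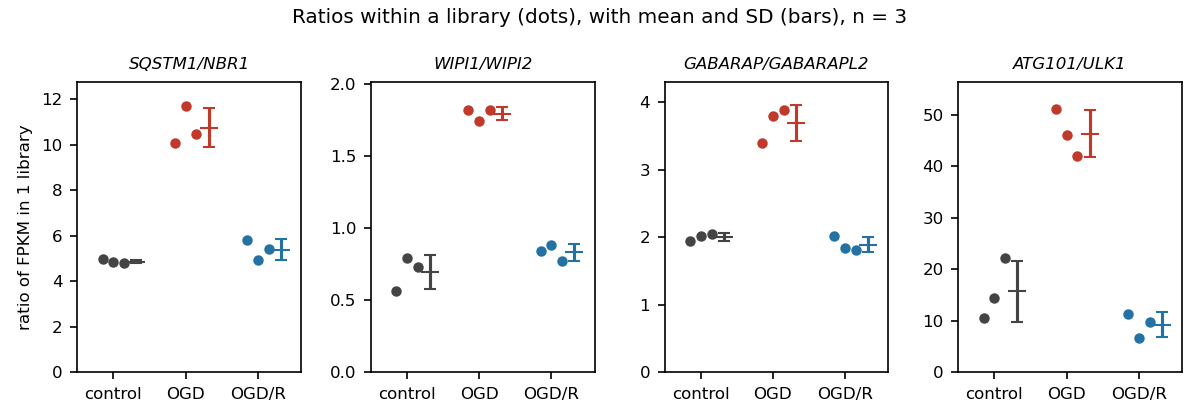
Ratios of the FPKM of 2 autophagy genes within 1 library, by group; dots are libraries, and bars are the mean and SD of 3 libraries. SQSTM1 over NBR1 is 10.1 to 11.7 in OGD against 4.81 to 5.82 in the other 6 libraries.

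Transcript length moved with the differences, in the autophagy genes as in the whole table. Over the 20 members whose longest coding transcript was shorter than the members' median length of 3601 nt, the median difference of OGD from control was -0.124, and over the 20 longer ones -0.539. All genes tested gave -0.173 and -0.44 on the same sides. From OGD to OGD/R the members' medians were -0.0938 and 0.731, beside 0.118 and 0.648 for all genes. Pearson's r between difference and log length was -0.384 over 40 members and -0.341 over 10809 genes in OGD against control, and 0.528 and 0.471 in OGD/R against OGD; these are correlations across genes, which share the 9 libraries and are not independent replicates. The slope of log2(FPKM + 1) on log length, after each gene's mean was taken off, was between -0.071 and 0.0554 in the control libraries, between -0.202 and -0.150 in OGD and between 0.131 and 0.228 in OGD/R. The part of length, or of what it stands for in RNA or library preparation, in any single gene's change was not tested apart from the removal of the trend.

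**Figure D4:**
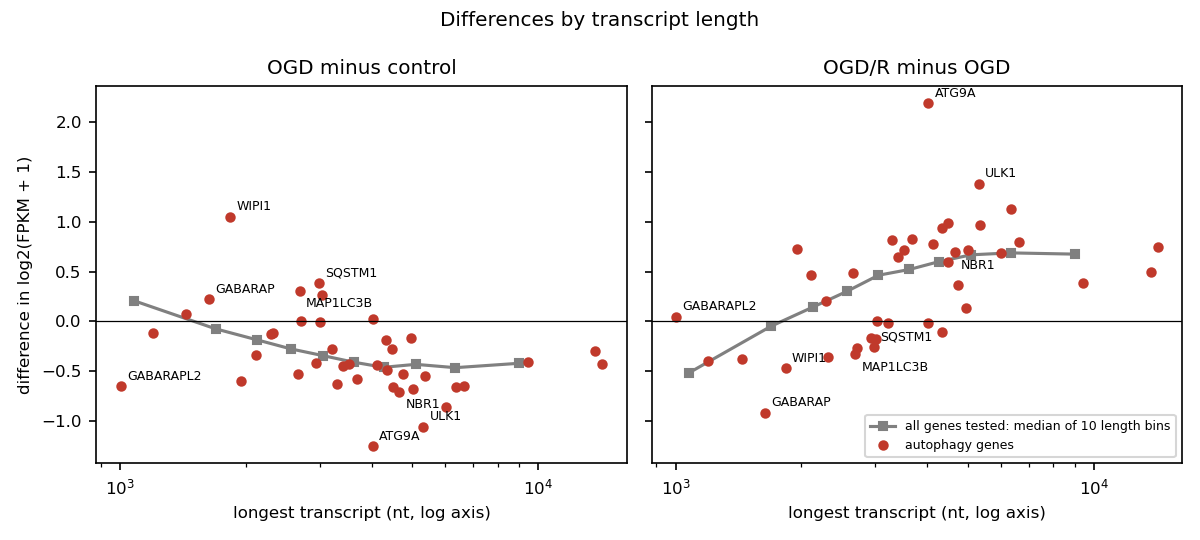
Difference in log2(FPKM + 1) against the longest transcript in nt (log axis), for OGD minus control and OGD/R minus OGD; points are the 40 autophagy genes and the line joins the medians of 10 length bins of all genes tested. In OGD against control the line goes from 0.21 in the shortest bin to -0.42 in the longest, and in OGD/R against OGD from -0.51 to 0.67.

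The counts of the autophagy genes differed between scales. In OGD against control, 9 rose and 10 fell after median-of-ratios scaling (26.5% and 23.1% of all genes), 4 and 8 after quantile normalization (20.0% and 22.4%), and 9 and 7 with the length trend removed (21.7% and 21.2%). From OGD to OGD/R the counts were 16 and 16 (32.6% and 34.2%), 14 and 11 (31.4% and 31.3%), and 10 and 14 (29.5% and 29.5%). OGD/R against control gave 4 and 9 (22.1% and 23.0%), 6 and 9 (22.1% and 23.1%), and 2 and 12 (22.0% and 22.0%).

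Some members changed the same way on all 4 scales. In OGD against control these were WIPI1, MAP1LC3B and SQSTM1, which were higher, and ULK1, ULK2, ATG9A, GABARAPL2 and NBR1, which were lower; 8.88% and 15.5% of all genes had such calls. ULK1 and ULK2 also passed in the 18 alternatives that tested them and the other 6 in 19, with adjusted p of at most 0.0395. From OGD to OGD/R, ULK1, ATG13, ATG9A, ATG2A, ZFYVE1, ATG4B and CALCOCO2 rose on all 4 scales and WIPI1, ATG4A, MAP1LC3B and GABARAP fell, beside 22.0% and 13.1% of all genes. Against control, ATG9A and WIPI1 were higher in OGD/R, and ATG5, ATG12, ATG4A, ATG4C, GABARAP, GABARAPL2 and FUNDC1 were lower, beside 17.3% and 12.2% of all genes. Calls of other autophagy genes on the deposited values were lost on at least 1 of the other scales.

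Some calls on the deposited values did not pass when 1 library was left out. Leaving out any library also leaves less data for the shared estimate of spread, so a lost call need not rest on that library. In OGD against control, the adjusted p went above 0.05 without OGD replicate 1 for ATG13 (0.0512), without OGD replicate 2 for PIK3C3 (0.0558), ATG5 (0.0793), ATG16L1 (0.0596), AMBRA1 (0.0644) and WDFY3 (0.0641), and without OGD replicate 3 for ATG14 (0.0634) and WDFY3 (0.0549). It also did so without control replicate 1 for ATG14 (0.0585), ATG16L1 (0.0528) and WDFY3 (0.0581), and without control replicate 2 for AMBRA1 (0.0588). From OGD to OGD/R it went above 0.05 without OGD replicate 2 for PIK3C3 (0.0546) and SQSTM1 (0.0578). ATG4A lost that call without OGD replicate 1 (0.122), OGD/R replicate 2 (0.0785) or OGD/R replicate 3 (0.0643), and VMP1 without any 1 OGD library or without OGD/R replicate 1 (0.0533 to 0.0925). In OGD/R against control, ATG13 lost the call without control replicate 3 (0.107), OGD/R replicate 2 (0.129) or OGD/R replicate 3 (0.0764), ATG101 without OGD/R replicate 2 (0.0613) and ATG5 without OGD/R replicate 3 (0.0555). ATG12 lost it without control replicate 2 (0.0685), OGD/R replicate 1 (0.0909) or OGD/R replicate 3 (0.0555), and OPTN without control replicate 2 (0.0696) or OGD/R replicate 2 (0.0844). UVRAG, VMP1 and CALCOCO2 lost it without any 1 of several libraries (adjusted p up to 0.112, 0.136 and 0.137). Among these were OGD libraries, which are outside that comparison and whose removal left the differences at 0.34, -0.27 and 0.25.

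**Figure D5:**
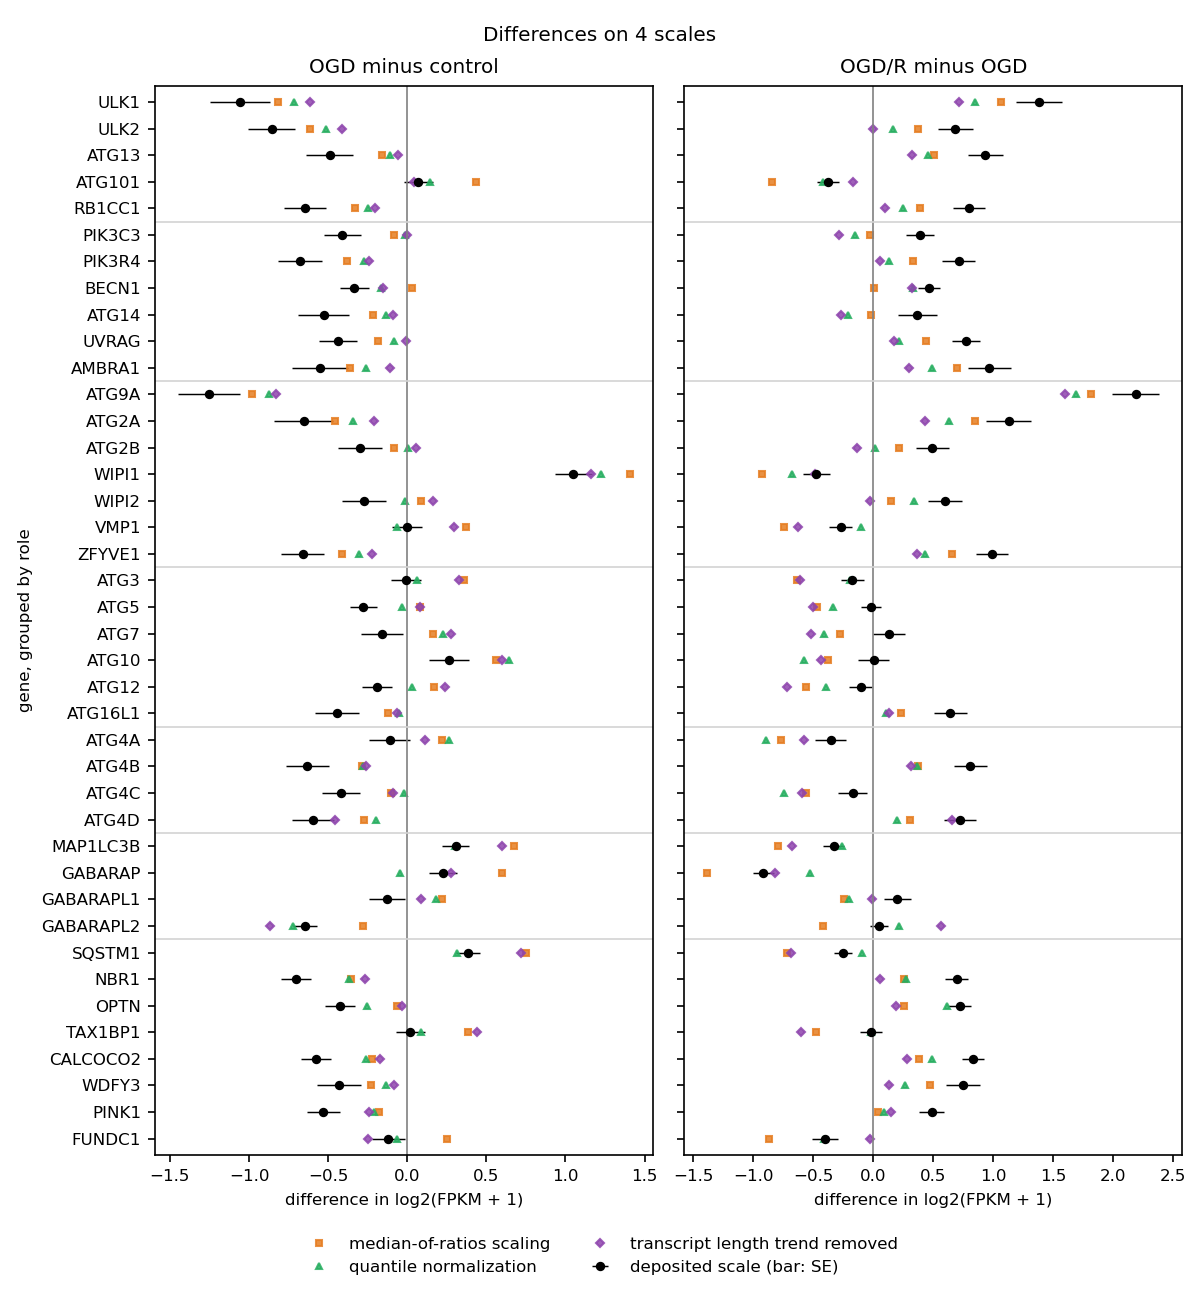
Difference in log2(FPKM + 1) of each of the 40 autophagy genes on 4 scales (deposited with its SE, median-of-ratios, quantile, length trend removed), for OGD minus control and OGD/R minus OGD; symbols are scales. WIPI1 in OGD against control lies right of 0 and ULK1 and ATG9A left of 0 on every scale, whereas GABARAPL2 in OGD/R against OGD spreads from -0.42 to 0.56.

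Of 52 other genes listed for the pathway, 45 passed the filter. In OGD 4 of them rose and 20 fell, beside 11.3% and 46.7% of all genes. At reoxygenation 23 rose and 7 fell, beside 53.3% and 17.4%, and 8 were higher and 10 lower in OGD/R than in control, beside 24.7% and 16.5%. These counts, too, are on the deposited values. Among 7 other mitophagy genes tested, 5 fell in OGD and 1 rose. Under median-of-ratios scaling, quantile normalization and removal of the length trend 2, 4 and 3 fell, and 1, 1 and 2 rose. The falls were led by the hypoxia-responsive receptors BNIP3L (-0.93) and BNIP3 (-0.89). PHB2 rose on all 4 scales, on the deposited values by 0.57, from 194 to 289 FPKM. BNIP3 averaged 258 FPKM over control libraries, 139 FPKM after deprivation and 167 FPKM after reoxygenation. Among 8 transcriptional regulators of autophagy genes, DDIT3 (CHOP, a factor of the integrated stress response) rose by 3.48, from 32.04 to 362 FPKM, and ATF4, its upstream factor, rose by 0.69, from 333 to 534 FPKM. FOXO3, which activates autophagy genes in starvation, fell by 0.82. Reoxygenated cells had less DDIT3 and ATF4 than OGD cells, 19.3 and 244 FPKM. These falls and rises of BNIP3, BNIP3L, DDIT3, ATF4 and FOXO3 in OGD held on all 4 scales.

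For autophagosome fusion with the lysosome, 4 of 13 genes fell in OGD and none rose, beside 46.7% and 11.3% of all genes. The falls were led by the HOPS tethering subunits VPS39 (-0.78), VPS41 (-0.66) and VPS16 (-0.53). After median-of-ratios scaling, quantile normalization and removal of the length trend 1, 1 and 2 fell and 4, 2 and 4 rose. At reoxygenation 8 of the 13 rose, beside 53.3% of all genes, and none fell; on the other scales 2, 3 and 4 rose and 3, 2 and 3 fell. VPS39 was among these 8, from 2.88 to 8.16 FPKM, as was the adaptor PLEKHM1, from 1.89 to 4.81 FPKM. In the list of 11 other core and ATG8 genes, 1 rose and 3 fell in OGD, and on the other scales 5, 2 and 1 rose and 1, 2 and 1 fell, with MAP1LC3A (LC3A) at -0.78, MAP1LC3B2 at 0.66 and the PI3P-binding WDR45B at -0.46. Of 6 ER-phagy receptors 4 fell in OGD and none rose, led by RTN3 (-0.64), CALCOCO1 (-0.53) and ATL3 (-0.47), beside 1, 2 and 0 that fell on the other scales.

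Sequence just upstream of the start was read for the members that RefSeq's promoter table held, 35 of 40, since several members rose or fell together. Over the 250 bases before the gene start, on both strands, CACGTG (the core E-box that TFEB and TFE3 can bind) was in 2 of 35 members, 5.71%, and in 8.99% of the promoters of all genes tested. TGATGNAA, the C/EBP-ATF composite form, was in none of the members and in 1.27% of the genes tested. TGACNNNGC, the core of the NRF2 antioxidant element, was in 3 of 35 (ATG101, CALCOCO2 and MAP1LC3B), 8.57%, against 12.2%. The shares of the members were not above those of all genes. The windows that hold the 2 E-box matches, and the antioxidant-type match of MAP1LC3B, which rose in OGD, are shown 5′ to 3′ on the gene's strand (GRCh38.p14, RefSeq), with the match in capitals.
ATG3, minus strand, chr3:112561963-112561996: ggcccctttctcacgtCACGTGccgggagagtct
ATG14, minus strand, chr14:55411831-55411867: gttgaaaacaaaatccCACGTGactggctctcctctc
MAP1LC3B, plus strand, chr16:87392274-87392314: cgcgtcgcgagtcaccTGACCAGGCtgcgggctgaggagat
The matches are descriptions of these letters in a short window, not sites of binding. Of the genes with an E-box match, ATG3 passed in no comparison on the deposited values and ATG14 fell in OGD. That fall did not pass on the other scales (-0.22, -0.13 and -0.09). ATG3 passed as higher in OGD after median-of-ratios scaling and removal of the length trend (0.36 and 0.33). Of those with the antioxidant-type match, MAP1LC3B rose in OGD on the deposited values, CALCOCO2 fell (-0.58, limma adjusted p = 0.000351) and ATG101 did not pass (0.07). Whether a match bears on the course of a gene was not tested.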

How the data were processed

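RNA-seq libraries of hCMEC/D3 cells were compared in 3 groups of 3, taken from the labels. The authors deposited 1 table of FPKM values per gene; the build was GRCh38, per the submitters' processing notes, with the aligner, counter, annotation and strand setting not given in the sources used here. No read counts were used, so depth, intervals and count tests could not be given. FPKM values were transformed as log2(FPKM + 1) and fitted with limma 3.58.1 (R 4.3.3): 3 group means over 9 libraries in 1 fit, empirical Bayes with a trend, two-sided, Benjamini-Hochberg adjustment over the 10818 genes that reached 1 FPKM in 3 or more libraries, threshold 0.05. The script was tested on simulated data. No pair of libraries held identical values in most genes.

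Transcript lengths are the longest protein-coding transcript of GENCODE v29; gene positions are RefSeq's (GRCh38.p14). Genes given in full were those called with an absolute log2 difference of at least 1 in any comparison, and ULK1, BECN1, ATG5, WIPI1, MAP1LC3B, GABARAPL1, SQSTM1 and PINK1. Of each pathway list, the named genes had the largest changes among those called, at most 3 a comparison; PLEKHM1 and other genes described outside this rule were chosen after their values were seen. The members and lists were chosen with earlier results of these data known. 19 alternatives were run: other pseudocounts, filters, scalings, fits and each library left out.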

Additional observations from a re-analysis of the deposited data

How the results depend on the processing

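Depth is unknown for FPKM values, which limits what can be said of genes near 1 FPKM, such as AMBRA1, ATG2A, ATG2B and WDFY3. For OGD against control, median-of-ratios scaling gave 9 genes higher, 10 lower and a median of -0.0932; quantile normalization gave 12 called, 8 of them lower, and a median of -0.0751; removal of the length trend gave 16 called, 9 higher, 7 lower and a median of -0.0619. ATG5 turned to 0.0801 under median-of-ratios scaling and to 0.0833 with the length trend removed, and BECN1 to 0.0286 under median-of-ratios scaling. For OGD/R against OGD, median-of-ratios scaling gave 16 lower and a median of 0.0243, quantile normalization 14 higher and 0.10, and removal of the length trend 10 higher, 14 lower and -0.0067. A filter of at least 5 FPKM in at least 3 libraries, which tests fewer genes, gave 14 higher and a median of 0.20. For OGD/R against control, that filter gave a median of -0.0094, removal of the length trend 2 higher and a median of -0.0761, and a fit of only the 2 groups compared, which has fewer libraries, 7 called, 2 higher and 5 lower. Where no cause is named, the cause was not tested.

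With each library left out in turn, the called genes ranged from 22 to 29 in OGD against control (3 to 4 higher, 19 to 25 lower, median -0.45 to -0.36), from 27 to 31 in OGD/R against OGD (21 to 23 higher, 6 to 8 lower, median 0.41 to 0.50) and from 9 to 17 in OGD/R against control (2 to 8 higher, 6 to 9 lower, median 0.04 to 0.12). The replicate numbers share no stated source. The deviations of same-numbered libraries correlated between -0.20 and 0.15 over 9 pairs, 1 of them above 0.1, and 2 libraries correlated best with their own number. With the replicate number as a block, 27 of the 40 genes were called in OGD against control (3 higher, 24 lower; without GABARAP), 29 in OGD/R against OGD (22 higher, 7 lower; without ATG4A) and 11 in OGD/R against control (4 higher, 7 lower; without UVRAG, CALCOCO2, VMP1 and ATG12).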
